A study of Mus musculus with 6 samples.

Results

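The genes of the 3 large families of phase II conjugating enzymes were followed in the mouse RNA of livers that carried human tumor cells. The UDP-glucuronosyltransferases (Ugt), the soluble glutathione S-transferases (Gst) and the sulfotransferases (Sult) were taken by symbol from the annotation, as protein-coding genes whose names start with Ugt and a number, Gst and a letter, or Sult and a number. Of the 56884 genes in the mouse table, 68 fitted these names, and 46 of them reached the total of at least 10 counts over the 6 libraries at which genes were tested (15 of 22 Ugt, 23 of 25 Gst and 8 of 21 Sult genes). The other 22 are named further on, of which 10 had no counts at all.

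Athymic male BALB/c (nu/nu) mice, 6 weeks old by the labels, received human hepatocellular carcinoma (HCC) cells of the line QGY-7703 in the liver and, 1 week later, adeno-associated virus 8 (AAV8) by the tail vein. The virus carried a control siRNA (siControl, genotype WT in the labels) or an siRNA against Aatf (siAATF, genotype KD), and follow-up lasted 3 more weeks. The siRNA was driven by the thyroxine-binding globulin promoter, which is active in hepatocytes. Total RNA of liver was sequenced in 3 libraries per group, all tumors came from 1 cell line, and athymic mice lack mature T cells. The comparison of siAATF with siControl libraries asked how the mouse cells around the tumor, the tumor microenvironment (TME), differed when the virus against Aatf was given.

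Phase II enzymes make foreign and endogenous compounds more water-soluble by adding a polar group. UDP-glucuronosyltransferases sit in the endoplasmic reticulum and transfer glucuronic acid from UDP-glucuronate to bilirubin, steroids, bile acids and drugs. Glutathione S-transferases add glutathione to reactive electrophiles, and cytosolic sulfotransferases transfer sulfate from the donor PAPS to phenols, steroids and bile acids. Hepatocytes are the main site of all 3 reactions in the body, and many of the genes are controlled there by liver-enriched factors such as HNF1 and HNF4 and by xenobiotic receptors.

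The libraries differed strongly in depth and content. Mouse genes took 703317, 213022 and 913584 counts in siControl replicates 1 to 3, 0.778% to 1.93% of all counts, but 42563694, 11835898 and 34966245 in siAATF replicates 1 to 3, 97.9% to 99.0% of all counts. The other counts were on human genes, so that the share of human RNA went with the group label. An effect of the virus and a difference in the tissue content of the libraries cannot be told apart here. Levels are given below as CPM (counts scaled to a fixed library total) after TMM scaling. On this scale 3 counts, which a gene without counts could still reach, are 1.67 to 7.25 CPM in single siControl libraries, 0.869 CPM over the siControl group and 0.104 to 0.605 CPM in single siAATF libraries, limits that cover counting error only. A gene was called when the adjusted p of edgeR's quasi-likelihood test, over all 18018 mouse genes tested, was under 0.05. Aatf itself was at 9.63, 2.42 and 12.8 CPM in siControl and at 13.3, 22.0 and 18.9 CPM in siAATF (log2 fold change 0.93, SE 0.47, adjusted p = 0.152 in edgeR), so that the mouse RNA did not show a lower level of the target in the libraries labelled siAATF, and the sign turned when libraries were scaled by size alone (-0.92). All directions below therefore refer to the libraries as labelled. The median log2 fold change of all genes tested was 0.50 under TMM scaling.

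RNA of hepatocyte markers moved with the groups. All 12 hepatocyte markers (Alb, Ttr, Apoa1 and others) rose, and their summed level went from 3150 to 7856 CPM in the siControl libraries to 41452 to 113907 CPM in the siAATF libraries, with Alb at 1058 to 2474 against 12495 to 42316 CPM. Called higher were 10 of them without siControl replicate 2, 9 without siControl replicate 3, 11 without siAATF replicate 3 and 10 under library size alone, with Alb not called without siControl replicate 2 or 3 (adjusted p = 0.0543 and 0.0828 in edgeR). By the same test, no marker of cholangiocytes, endothelial cells, stellate cells and fibroblasts, macrophages or neutrophils rose, while 2 of 5, 3 of 6, 4 of 6, 4 of 6 and 3 of 4 of the tested ones fell. The cholangiocyte marker Epcam lost its call without siControl replicate 1 or 3 (adjusted p = 0.162 and 0.0843 in edgeR). Of the neutrophil markers only Csf3r stayed lower in each fit without 1 library. S100a9 and Ly6g, whose groups overlapped, lost the call in some of these fits, while S100a8 and the endothelial marker Kdr gained one in some. The summed markers of stellate cells and fibroblasts went from 5790 to 8690 CPM to 316 to 454 CPM, and those of macrophages from 498 to 1896 to 108 to 163 CPM. Col1a1 and Col3a1 made up most of the first sum in siControl, with means of 3409 and 3119 CPM. Lrat, of the same list, had means of 3.94 and 8.99 CPM and was not called. The cholangiocyte marker Sox9 (means 16.7 and 32.1 CPM) and the endothelial marker Stab2 (21.2 and 39.5 CPM) were higher in siAATF without overlap but not called. Clec4f, a marker of the resident macrophages of the liver, was at 44.2, 2.42 and 13.4 CPM in siControl and 69.5, 45.4 and 69.1 CPM in siAATF. It was higher without overlap but not called (adjusted p = 0.0705 in edgeR), and was called higher without the count filter, with the replicate number as a block, and without siControl replicate 1 or siAATF replicate 2 or 3 (adjusted p = 6.79e-05 to 0.0354 in edgeR). Of the enterocyte and kidney tubule markers, 2 of 4 were tested and Fabp2 rose, while the defining kidney markers Slc34a1 and Umod had no counts in any library. In bulk RNA, fewer cells of a type and less RNA per cell cannot be told apart, and how much of each change below goes with hepatocyte RNA was measured only through ratios to these markers. The siAATF libraries also had 20.8% to 56.1% of their mouse counts on mitochondrial genes, against 4.04% to 10.5% in siControl. Within siAATF, replicate 3 stood apart in the acute phase genes of the liver, a list added after the values were seen: the summed level of 10 such genes was 231535 CPM there, against 8680 and 19708 CPM in siAATF replicates 1 and 2 and 7588 to 12027 CPM in siControl.

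The promoters of the members were read from GRCm39, the build of the mouse counts, as the 250 bases before and 50 bases after the start of the canonical transcript, and searched on both strands for 3 letter patterns. HNF1 sites were searched as the first 10 letters of the HNF1 consensus with any base at position 7 (the letters in capitals in the Sult and Ugt promoters below), HNF4 sites as CAAAGTCCA and the core of the antioxidant response element (ARE), which NRF2 binds, as TGACNNNGC. The HNF1 letters stood in 0.382% of 13870 promoters of all protein-coding genes tested, and in 2 of 15 Ugt, 0 of 23 Gst and 3 of 8 Sult promoters. The ARE core stood in 13.4% of all promoters, in 2 of 23 Gst promoters and in no Ugt or Sult promoter, and the HNF4 letters in 0.469% of all promoters and in no member's promoter. The sequences below show the matching letters in capitals, 5′ to 3′ on the strand of the gene. They were chosen because they place 1 pattern before a pair of Sult genes of very different level, Sult1d1 with a mean of 64.1 and Sult2a7 with 3.32 CPM per kb in siAATF, and before the Ugt1a genes Ugt1a1 and Ugt1a9, whose counts do not give a level. Gsta3 is shown as the more abundant of the 2 Gst genes with the ARE core.
Sult1d1 (chr5:87716884-87717183, minus strand): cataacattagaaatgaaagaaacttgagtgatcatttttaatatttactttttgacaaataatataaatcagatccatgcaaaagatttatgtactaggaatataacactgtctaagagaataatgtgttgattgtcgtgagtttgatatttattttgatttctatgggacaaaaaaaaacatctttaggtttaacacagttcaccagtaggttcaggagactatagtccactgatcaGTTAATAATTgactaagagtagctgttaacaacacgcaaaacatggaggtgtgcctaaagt
Sult2a7 (chr7:14226847-14227146, minus strand): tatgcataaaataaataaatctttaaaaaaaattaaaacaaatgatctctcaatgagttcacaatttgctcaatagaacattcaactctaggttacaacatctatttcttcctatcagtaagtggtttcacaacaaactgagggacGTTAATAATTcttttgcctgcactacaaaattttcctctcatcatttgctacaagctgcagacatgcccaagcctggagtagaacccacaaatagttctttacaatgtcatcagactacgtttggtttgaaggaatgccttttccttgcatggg
Ugt1a1 (chr1:88139429-88139728, plus strand): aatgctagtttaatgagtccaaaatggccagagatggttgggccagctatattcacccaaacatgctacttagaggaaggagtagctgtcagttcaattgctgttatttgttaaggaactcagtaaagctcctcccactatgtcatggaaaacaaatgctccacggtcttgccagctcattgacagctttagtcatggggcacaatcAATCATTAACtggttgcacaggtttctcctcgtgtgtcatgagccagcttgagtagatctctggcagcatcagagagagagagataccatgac
Ugt1a9 (chr1:87998200-87998499, plus strand): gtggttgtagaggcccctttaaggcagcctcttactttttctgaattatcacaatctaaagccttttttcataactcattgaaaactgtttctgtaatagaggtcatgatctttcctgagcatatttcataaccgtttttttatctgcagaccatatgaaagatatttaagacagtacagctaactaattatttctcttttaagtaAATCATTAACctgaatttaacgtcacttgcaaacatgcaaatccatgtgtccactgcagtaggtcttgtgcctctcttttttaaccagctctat
Gsta3 (chr1:21310556-21310855, plus strand): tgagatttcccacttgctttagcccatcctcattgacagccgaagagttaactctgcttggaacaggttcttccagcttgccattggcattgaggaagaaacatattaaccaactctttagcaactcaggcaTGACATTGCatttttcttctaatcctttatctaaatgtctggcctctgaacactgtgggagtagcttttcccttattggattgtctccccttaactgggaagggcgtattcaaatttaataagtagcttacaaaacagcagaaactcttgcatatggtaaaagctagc

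The HNF1 letters start 11 bases before the start site in Sult1d1, 104 before it in Sult2a7, 43 before it in Ugt1a1 and 44 before it in Ugt1a9, in the last 2 on the opposite strand. The promoters with the same letters included those of Sult1c2 and of the untested genes Sult2a2, Sult2a3, Sult2a4, Sult2a5, Sult2a6 and Ugt1a10. Sult2a8, the Sult2a gene with the highest level, does not carry them. The 5 tested genes with the pattern included 1 that rose, Sult1d1, and 4 that were not called, where 17.6% of all tested genes rose. The 4, Sult1c2, Sult2a7, Ugt1a1 and Ugt1a9, had only 1, 0, 5 and 0 siControl counts. Their calls therefore do not show whether the pattern goes with a rise. The ARE core starts 118 bases before the start site in Gsta3, which rose, and 9 bases before it in Gstm5, which was not called. Nfe2l2, the gene of NRF2, fell (log2 fold change -1.25), a call that was lost without siControl replicate 1 or 3 or siAATF replicate 1 (adjusted p = 0.0527 to 0.117 in edgeR). A match of letters is a description and does not show that a factor binds.

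Across the 3 families, 30 of the 46 tested members rose in siAATF, none fell and 16 were not called, where 17.6% of all tested genes rose and 14.4% fell. No member was lower at an unadjusted p under 0.05 in edgeR either, nor called lower by DESeq2, the program of the study. At the study's own threshold, an unadjusted p under 0.05 with an absolute log2 fold change of at least 2, 34 members rose and none fell, beside 13.6% and 13.1% of all genes. Among Ugt genes 9 of 15 rose, among Gst genes 16 of 23 and among Sult genes 5 of 8. Of the 26 members with a total of at least 10 counts over the siControl libraries, 23 rose. The 3 that did not are Gsto1, Gstm5 and Gstcd, all of the Gst family. How many of all genes with as many siControl counts rose was not taken, so these 26 have no like background beside them. The levels of 35 members did not overlap between the groups and were higher in siAATF, where this was so of 34.5% of all genes, and no member was lower without overlap, against 18.1% of all genes.

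**Figure D1:**
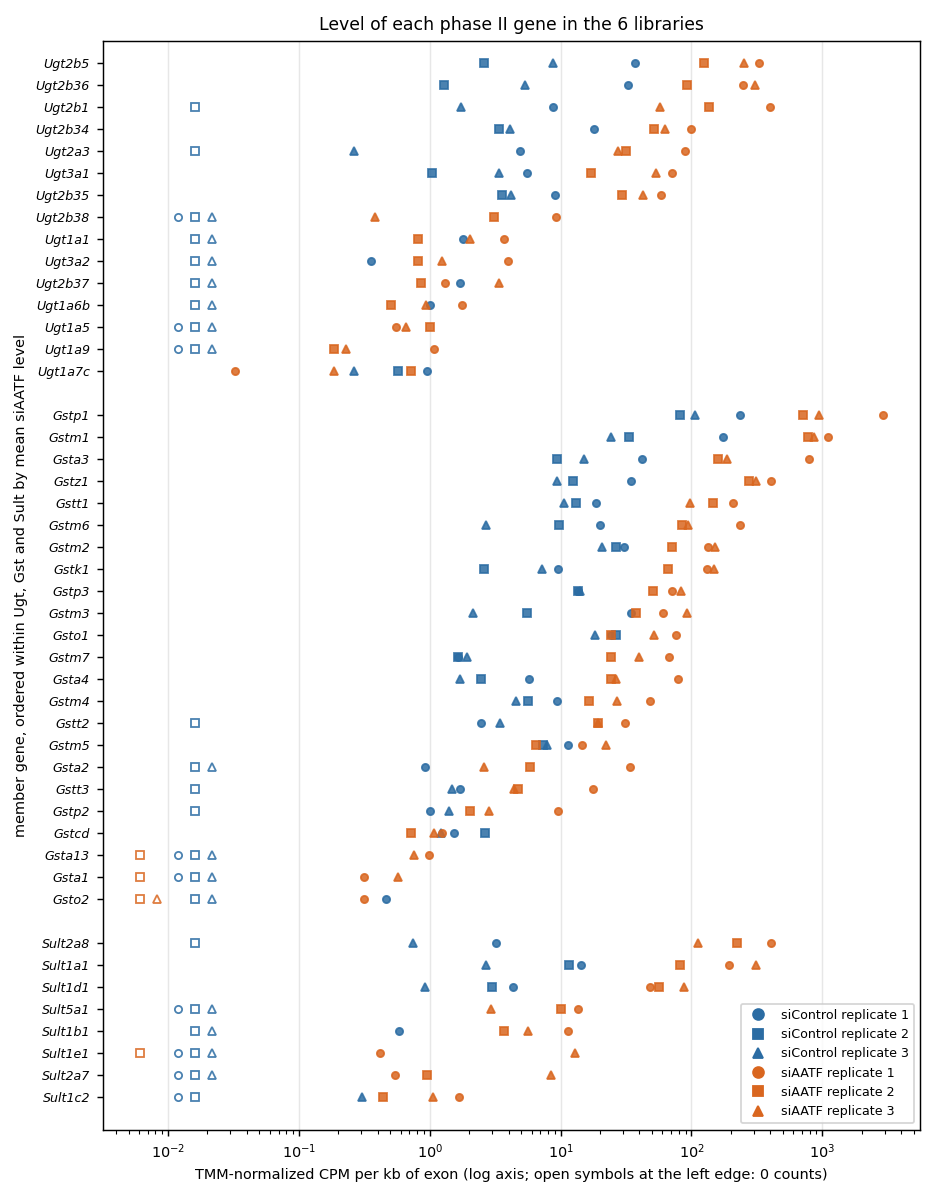
Level of each tested member in each library, in TMM-normalized CPM per kb of exon on a log axis, with siControl in blue and siAATF in orange and 1 symbol shape per replicate number. Open symbols at the left are libraries with 0 counts. The abundant genes at the top of each family have all 3 siAATF libraries to the right of all 3 siControl libraries, while Gsto1, Gstm5, Gstcd and Ugt1a7c overlap.

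The median log2 fold change of the 46 members was 3.69, which is 3.19 above the median of all genes. With members that had no siControl count set to their lower bound it was 3.11. By family the median was 3.78 for Ugt (3.02 at the bounds), 3.41 for Gst (2.76) and 6.17 for Sult (4.53), beside 4.24 for the 12 hepatocyte markers. Scaling moved these values together: with library size alone the members' median was 2.04 and that of all genes -1.30, 3.34 apart. The share of higher genes among all genes called was 55.0% under TMM and 9.31% under library size alone, and 21 of the 30 members still rose under the latter, while 2 members fell, Ugt1a7c and Gstcd. By library size alone 4.15% of all genes rose and 40.4% fell.

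**Figure D2:**
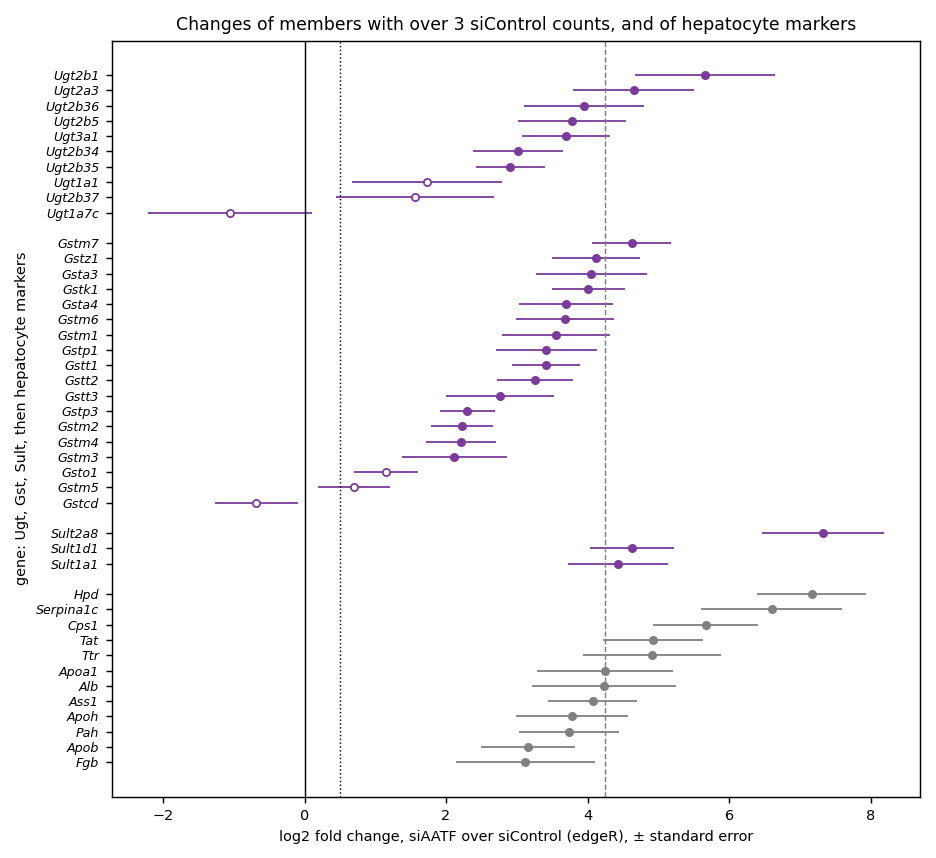
Fitted log2 fold change of siAATF over siControl with its standard error, for the members with more than 3 siControl counts (purple) and the hepatocyte markers (grey). Filled points rose, open points were not called. The solid line marks 0, the dotted line the median of all genes (0.50) and the dashed line the median of the hepatocyte markers (4.24). Most members lie between these lines, and Ugt2b1 (5.66), Ugt2a3, Gstm7 and the 3 Sult genes, with Sult2a8 at 7.32, lie to the right of the dashed line.

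The Ugt2b genes took 86.8% to 90.2% of the counts assigned to Ugt genes in each library. They form a cluster on chromosome 5 and conjugate steroids, bile acids and drugs. Ugt2b5 (chr5:87272819-87288177), the Ugt gene with the highest mean level per length in siAATF, was at 69.0, 4.83 and 16.2 CPM in siControl replicates 1 to 3 and at 604, 231 and 465 CPM in siAATF replicates 1 to 3. It was higher in each siAATF library than in each siControl library, although it led the family in none of the siAATF libraries (Ugt2b1 led in replicates 1 and 2 and Ugt2b36 in replicate 3, per length), and siControl replicate 1 lay above its 2 partners. The log2 fold change was 3.78 (SE 0.76, adjusted p = 0.0024 in edgeR).

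Ugt2b36 followed it, at 61.8, 2.42 and 10.04 CPM against 466, 174 and 577 CPM (log2 fold change 3.95, SE 0.85). Ugt2b1 (chr5:87064497-87074389), known to conjugate bisphenol-type phenols in rodents, was at 22.5, 0 and 4.46 CPM in siControl and at 1027, 349 and 149 CPM in siAATF. Its fold change was the highest of the members with 4 or more siControl counts in the family (log2 5.66, SE 0.99, adjusted p = 0.00096 in edgeR), and siAATF replicate 1 lay 6.90 times above replicate 3. Ugt2a3, a related enzyme of liver and intestine, rose from 10.4, 0 and 0.558 to 187, 67.0 and 58.5 CPM (log2 fold change 4.65, SE 0.85).

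Ugt2b34 and Ugt2b35 rose less. Ugt2b34 was at 77.9, 14.5 and 17.8 CPM in siControl and 424, 224 and 271 CPM in siAATF (log2 fold change 3.02, SE 0.63). Ugt2b35 was at 30.5, 12.1 and 13.9 against 195, 99.0 and 143 CPM (log2 fold change 2.91, SE 0.49), and both kept the sign but lost the call when libraries were scaled by size alone. Ugt2b38 had no count in siControl and 17.5, 5.85 and 0.721 CPM in siAATF, at least 9.24-fold higher in the mean than the 0.869 CPM that 3 counts over the siControl group allow. The bound rests on siAATF replicate 1, without which it was 3.78, and replicate 3 lay below that limit. Ugt2b38 lost the call without any 1 of the siControl replicates or siAATF replicate 1, with adjusted p = 0.0536 to 0.107 in edgeR. Ugt2b5 and Ugt2b38 share 18.2% and 24.2% of their 100-base windows with related genes, so that reads could be lost from both.

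Of the remaining genes, Ugt3a1 and Ugt3a2, which use sugar donors other than UDP-glucuronate, rose. Ugt3a1 went from 12.8, 2.42 and 7.81 to 166, 39.9 and 124 CPM. Ugt3a2 had 1 count over the siControl libraries and 316 over the siAATF libraries, a ratio of 21.0 with a 95% exact counting interval of 3.74 to 832, and a ratio of 8.86 without siAATF replicate 1. Its call was lost without that library or without siControl replicate 2 or 3 (adjusted p = 0.0811 to 0.183 in edgeR). Ugt2b37 stood at 3.21, 0 and 0 against 2.48, 1.61 and 6.43 CPM and was not called.

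The 9 genes of the Ugt1a locus, which holds the bilirubin transferase Ugt1a1, were assigned few counts. Each has a first exon of its own and all share the downstream exons on chromosome 1, so that 35.7% of their exon bases belong to 1 gene alone, against 100% for the Ugt2b genes. Together they took 13, 1 and 2 counts in the siControl libraries and 476, 48 and 173 in the siAATF libraries. The Ugt2b genes took 330, 14 and 112 against 79277, 5377 and 29076 counts. None of the 5 tested Ugt1a genes was called by edgeR, with 1 of them at an unadjusted p under 0.05 and 0 called by DESeq2. Ugt1a1 itself was at 4.01, 0 and 0 CPM in siControl and 8.25, 1.82 and 4.55 CPM in siAATF (log2 fold change 1.72, SE 1.06, adjusted p = 0.237 in edgeR). It was called higher without siControl replicate 1, which held all of its siControl counts, and with the replicate number as a block (adjusted p = 0.0341 and 0.0421 in edgeR). How reads on the shared exons were handled by the counting was not tested, and the counts of this locus do not give the level of its RNA. Of the untested Ugt genes, Ugt1a10, Ugt1a2, Ugt1a6a, Ugt1a8 and Ugt8a had 1 to 8 counts and Ugt2a1 and Ugt2a2 had none.

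The glutathione S-transferases took the most counts of the 3 families. Gstp1 (chr19:4085407-4087985), the pi-class enzyme, was at 194, 67.6 and 87.6 CPM in siControl and at 2396, 587 and 769 CPM in siAATF. Every siAATF library lay above every siControl library, and siAATF replicate 1 lay 4.08 times above replicate 2. The log2 fold change was 3.41 (SE 0.71, adjusted p = 0.0029 in edgeR). Gstp1 shares 47.3% of its 100-base windows with Gstp2 and the pseudogene Gstp-ps, and Gstp2 had 3 counts over the siControl libraries and 270 over the siAATF libraries and was not called (adjusted p = 0.115 in edgeR).

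The mu-class genes lie together on chromosome 3. Gstm1, the main one, was at 238, 45.9 and 32.9 CPM in siControl and at 1509, 1057 and 1186 CPM in siAATF (log2 fold change 3.55, SE 0.76, adjusted p = 0.0036 in edgeR). Gstm7 went from 2.41, 2.42 and 2.79 to 98.4, 35.5 and 57.6 CPM, the steepest rise among Gst genes with 4 or more siControl counts (log2 fold change 4.62, SE 0.56). Gstm2 went from 36.1, 31.4 and 24.5 to 160, 85.1 and 182 CPM (log2 fold change 2.22, SE 0.44), and lost the call under library size alone and after thinning all libraries to the smallest mouse total. Gstm3, Gstm4 and Gstm6 also rose, so that 6 of the 7 mu genes did, with the call of Gstm3 lost without siControl replicate 2 or 3, under RLE scaling and library size alone, and after thinning (adjusted p = 0.0511 to 0.636 in edgeR). Gstm5, a mu gene known from brain and testis, was at 11.2, 7.25 and 7.81 against 14.6, 6.45 and 22.0 CPM, and its groups overlapped.

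The alpha class holds the enzymes of the hepatocyte cytosol that also bind bilirubin and haem. Gsta3 (chr1:21310813-21335885), which detoxifies aflatoxin epoxide in mouse liver, was at 65.0, 14.5 and 23.4 CPM in siControl and at 1221, 248 and 289 CPM in siAATF (log2 fold change 4.05, SE 0.78, adjusted p = 0.0018 in edgeR). Gsta4, which conjugates the lipid peroxidation product 4-hydroxynonenal, rose from 5.62, 2.42 and 1.67 to 77.0, 23.6 and 26.0 CPM. Gsta2 had 1 count over the siControl libraries and 921 over the siAATF libraries, a ratio of 61.2 with a 95% exact counting interval of 10.95 to 2419. Of these counts 855 came from siAATF replicate 1, without which the ratio was 9.91 (interval 1.72 to 397), and the call was lost without siControl replicate 2 or 3 or siAATF replicate 1 (adjusted p = 0.0513 to 0.0982 in edgeR). Gsta1 and Gsta13, which share 85.3% and 88.9% of their windows with each other and their neighbours, had 17 and 37 counts in siAATF and none in siControl, and were not called.

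Genes of the zeta, theta and kappa classes rose as well. Gstz1, the zeta-class enzyme of tyrosine breakdown (maleylacetoacetate isomerase), was at 74.7, 26.6 and 20.1 CPM in siControl and at 868, 596 and 667 CPM in siAATF (log2 fold change 4.12, SE 0.62, adjusted p = 0.00035 in edgeR). The siAATF libraries differed by 1.46 times at most, and those of Gstm1 by 1.43 times. Gstt1, of the theta class, went from 27.3, 19.3 and 15.6 to 304, 214 and 144 CPM (log2 fold change 3.41, SE 0.48), and Gstt2 and Gstt3 rose too. The call of Gstt3 was lost without siControl replicate 3 or siAATF replicate 1 (adjusted p = 0.0689 and 0.0636 in edgeR). Gstk1, the mitochondrial and peroxisomal kappa enzyme, went from 8.83, 2.42 and 6.69 to 122, 61.3 and 138 CPM.

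3 Gst genes with at least 10 siControl counts were not called. Gsto1, the omega enzyme that reduces dehydroascorbate and methylated arsenic, was at 28.9, 31.4 and 21.8 CPM in siControl and at 89.8, 28.4 and 60.8 CPM in siAATF. Its groups overlapped at siAATF replicate 2 (log2 fold change 1.16, SE 0.45, adjusted p = 0.0692 in edgeR), and its sign turned under library size alone (-0.54) and after thinning (-0.21). It was called higher without that replicate, with no filter, with at least 10 counts in every library and with the replicate number as a block (adjusted p = 0.00453 to 0.0393 in edgeR). Gstcd, a gene named for a GST-like domain, was at 5.62, 9.66 and 4.46 against 4.55, 2.62 and 3.94 CPM (log2 fold change -0.68, SE 0.59, adjusted p = 0.390 in edgeR). Gsto2 had 1 count over the siControl libraries and 16 over the siAATF libraries and was not called, and of the untested genes Gsta5 had 2 counts and Gstt4 none.

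The sulfotransferases rested on the fewest siControl counts, 50, 10 and 16 in replicates 1 to 3 over the whole family, against 40289, 4001 and 17576 in siAATF. Sult2a8 (chr7:14144611-14180511), a hepatic enzyme that sulfates bile acids in the mouse, had 12 counts in siControl, at 7.23, 0 and 1.67 CPM, and 904, 503 and 253 CPM in siAATF. Its log2 fold change of 7.32 was the highest of the members with 4 or more siControl counts (SE 0.86, adjusted p = 8.53e-05 in edgeR). The groups stood far apart although siControl replicate 2 had no count.

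The phenol sulfotransferase Sult1a1 was at 20.9, 16.9 and 3.90 CPM in siControl and 282, 118 and 453 CPM in siAATF (log2 fold change 4.43, SE 0.71, adjusted p = 0.00054 in edgeR). Sult1d1, which sulfates catecholamines and other phenols, went from 10.4, 7.25 and 2.23 to 117, 136 and 213 CPM (log2 fold change 4.63, SE 0.59). Sult1b1, which acts on thyroid hormones, had 2 counts over the siControl libraries and 1257 over the siAATF libraries, a ratio of 41.8 with a 95% exact counting interval of 11.5 to 345, and a ratio of 25.2 without siAATF replicate 1. Sult5a1 had none in siControl and 51.5, 38.1 and 11.1 CPM in siAATF, at least 38.6-fold higher than the limit for the siControl group.

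The other tested Sult genes were not called by edgeR. Sult1e1, the estrogen sulfotransferase, had no siControl count and was at 0.518, 0 and 15.98 CPM in siAATF. Sult2a7 likewise had none and was at 0.690, 1.21 and 10.8 CPM, so that both were highest in siAATF replicate 3. Both were called higher with no filter, with the replicate number as a block and without siAATF replicate 1 (adjusted p = 9.37e-05 to 0.0462 in edgeR), and Sult2a7 also by DESeq2 (adjusted p = 0.0302). Sult1c2 had 1 count over the siControl libraries and 129 over the siAATF libraries, a ratio of 8.57 with an interval of 1.51 to 341. Of the 13 untested Sult genes, 7 had no counts (Sult1c1, Sult2a2, Sult2a3, Sult2a4, Sult2a5, Sult2a6 and Sult6b2), and Sult2a1, Sult2b1, Sult3a1, Sult3a2, Sult4a1 and Sult6b1 had 1 to 9.

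The make-up of each family, as a share of its counts per kb, does not depend on the scaling between libraries. Gstp1 held 36.4% ± 4.93 (SD, n = 3) of the Gst family in siControl and 34.5% ± 9.45 in siAATF, and Ugt2b5 held 27.5% ± 5.74 and 27.0% ± 3.37 of the Ugt family, and for both genes the groups overlapped. The leading gene differed between libraries. In siAATF replicates 1 and 2 Ugt2b1 held 30.5% and 27.7% of the Ugt family, in replicate 3 Ugt2b36 held 37.8%, and in replicate 2 Gstm1 held 30.8% of the Gst family against 28.5% for Gstp1. Sult1a1 held 64.0%, 79.6% and 55.0% of the Sult family in siControl and 28.9%, 21.6% and 57.3% in siAATF. Sult2a8 held 14.3%, 0% and 15.2% in siControl and 59.8%, 59.5% and 20.7% in siAATF, without overlap, and replicate 3 of siAATF lay nearest to siControl for both genes.

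Other shares also moved without overlap between the groups. Gstz1 held 5.15%, 4.85% and 3.67% of the Gst family in siControl and 6.28%, 11.1% and 9.80% in siAATF. Gsto1 went the other way, with 3.63%, 10.4% and 7.23% against 1.18%, 0.959% and 1.62%. In the Ugt family, Ugt2b34 held 14.8%, 27.0% and 14.8% against 7.51%, 10.6% and 7.77%, and Ugt2b35 held 7.44%, 28.9% and 14.9% against 4.43%, 6.01% and 5.27%. These shares have no test and rest in siControl on 16 Ugt counts and 124 Gst counts in replicate 2.

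**Figure D3:**
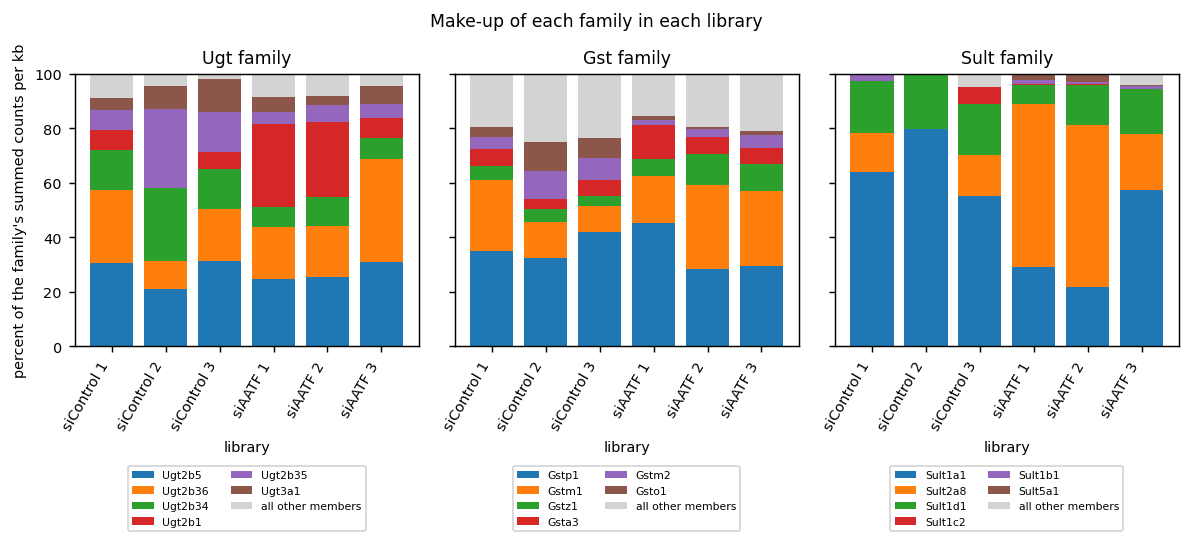
Make-up of the Ugt, Gst and Sult families in each library, as stacked percentages of the family's summed counts per kb of exon, with the 6 leading genes in colour and all others in grey. Sult2a8 (orange, right panel) takes 59.8% and 59.5% of the Sult bars in siAATF replicates 1 and 2, against 0% to 15.2% in siControl. The Ugt bar of siControl replicate 2 rests on 16 counts.

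Summed over its members, the Ugt family was at 299, 38.7 and 72.0 CPM in siControl and at 3115, 1203 and 1808 CPM in siAATF (14.9-fold between means). The Gst family was at 804, 300 and 285 against 7509, 3223 and 3945 CPM (10.6-fold), and the Sult family at 40.1, 24.2 and 8.92 against 1390, 807 and 975 CPM (43.3-fold). By library size alone the ratios were 4.76, 3.31 and 13.2, and the Ugt and Gst groups overlapped, with siAATF replicate 2 (504 and 1350 CPM) below siControl replicate 1 (531 and 1427 CPM). Under TMM scaling and without siControl replicate 1, the highest siControl library in each family, the ratios were 36.9, 16.7 and 63.9. The 12 hepatocyte markers together were 17.4-fold higher. The families were then set against these markers within each library.

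Per 1000 hepatocyte marker counts, the Ugt family stood at 38.1, 12.3 and 22.3 counts in the siControl libraries and at 33.7, 29.0 and 15.9 in the siAATF libraries, so that the groups overlapped (ratio of means 1.08, 1.52 without siControl replicate 1 and 0.868 without siControl replicate 2). The Gst family had 102, 95.1 and 88.2 against 81.3, 77.7 and 34.6, lower without overlap (ratio 0.678), although per 1000 Alb counts the groups overlapped (325, 283 and 251 against 177, 258 and 120). The Sult family had 5.11, 7.67 and 2.76 against 15.0, 19.5 and 8.56, higher without overlap (ratio 2.77). This difference rested on Sult2a8: without it, an alternative chosen after seeing the data, the Sult family had 4.19, 7.67 and 2.24 against 5.27, 7.34 and 6.34, and the groups overlapped (ratio 1.34). Without Gstp1 the Gst ratio hardly moved (0.691 against 0.678). The Gst groups then overlapped (77.7, 73.6 and 61.1 against 55.3, 63.6 and 27.9), with siAATF replicate 2 above siControl replicate 3. Among the siAATF libraries all 3 families were lowest in replicate 3, the library with the highest acute phase genes, and the marker list holds the acute phase gene Fgb. Without Fgb, an alternative chosen after seeing the data, the ratios were 0.872, 0.535 and 2.18 for Ugt, Gst and Sult, and without siAATF replicate 3 they were 1.30, 0.835 and 3.33.

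**Figure D4:**
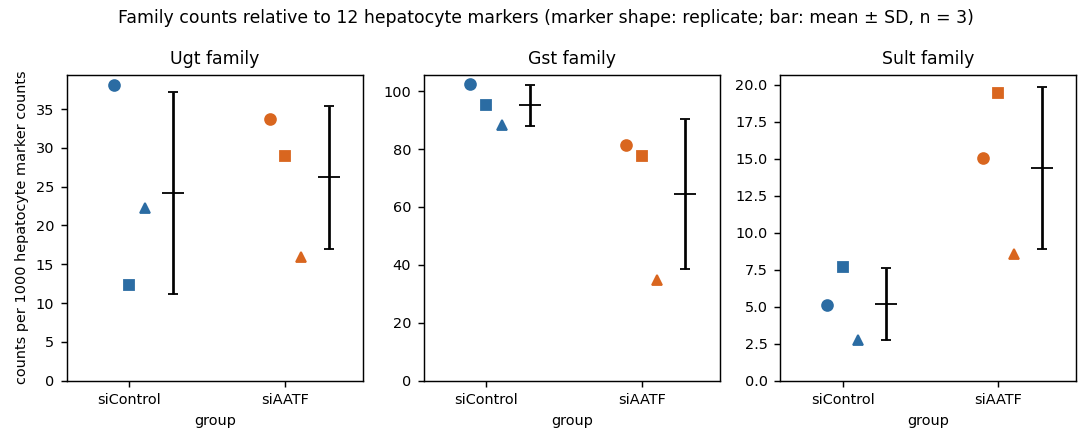
Summed counts of each family per 1000 counts of 12 hepatocyte markers, by library (symbols by replicate number) with the mean ± SD of 3 libraries in black. The Ugt groups overlap, the Gst values are lower and the Sult values higher in siAATF than in siControl, and siAATF replicate 3 (triangle) is the lowest siAATF library in each panel.

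Relative to the same markers, 6 members were higher in siAATF without overlap between the groups, where 10.7% of all genes were, and 8 were lower, where 57.3% were. The higher ones are Sult2a8, Sult5a1, Sult2a7, Ugt2b38, Ugt1a5 and Ugt1a9, and 5 of these had no siControl count. Sult2a8 had 0.920, 0 and 0.518 counts per 1000 marker counts in siControl and 9.78, 12.1 and 2.22 in siAATF. At the mean siAATF ratio to the markers the siControl libraries would have held 136 Sult2a8 counts, and at the lowest siAATF ratio 37.5, where 12 were counted. For Sult5a1 the same numbers are 8.86 and 1.64 where none was counted, the second of them below the 3 counts that a count of 0 allows. For the other 4 they are at most 1.90, so that at this depth a difference relative to hepatocytes was not detectable for those, nor for Sult5a1 at its lowest siAATF ratio. The lower ones are Gstm2, Gstm4, Gstm5, Gstp3, Gsto1, Gstcd, Ugt2b35 and Ugt1a7c. Gsto1 had 3.68, 9.97 and 6.73 per 1000 marker counts in siControl and 0.972, 0.686 and 0.534 in siAATF. Gstm2 had 4.60, 9.97 and 7.60 against 1.74, 2.05 and 1.59. In siControl, these counts can include transcripts of other mouse cells, or human reads placed on a mouse gene, and the part of either was not tested.

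Among the siAATF libraries the members did not vary together. Ugt2b1, Ugt2b38, Gsta2, Sult5a1 and Sult2a8 were highest in replicate 1 and lowest in replicate 3, by 6.90, 24.3, 13.0, 4.64 and 3.58 times. Gsta3 and Gstp1 were also highest in replicate 1 (4.93 and 4.08 times above the lowest). Sult2a7, by contrast, was 15.7 times higher in replicate 3 than in replicate 1, and Sult1a1 was highest in replicate 3 too. Gstm1, Gstz1 and Sult1d1 differed by less than 2 times.

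**Figure D5:**
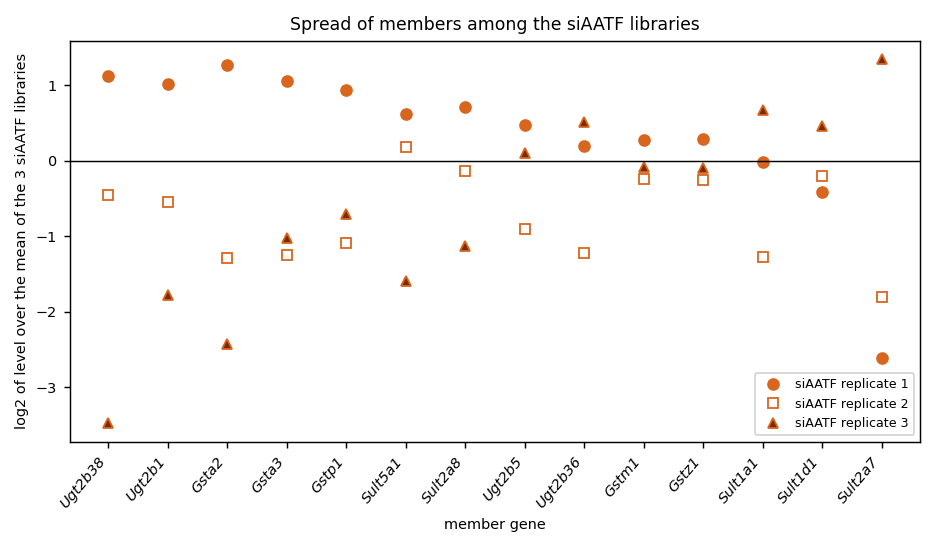
Level of 14 members in each siAATF library, as the log2 of the level over the mean of the 3 libraries, with 1 symbol per replicate. The genes were chosen after their values were seen. Replicate 1 (filled circle) is highest for the genes at the left, replicate 3 (dark triangle) for Sult2a7 and Sult1a1 at the right, and Gstm1 and Gstz1 lie close to 0 in all 3.

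In the same libraries Saa2, a major acute phase protein of the liver, was at 14.0, 1952 and 62709 CPM in siAATF replicates 1 to 3, and Lcn2 at 12.3, 340 and 6554 CPM. In siControl Saa2 lay at 728 to 920 CPM and Lcn2 at 1031 to 1889 CPM. Ugt2b1, Ugt2b38, Gsta2, Sult5a1 and Sult2a8 were grouped above, after the values were seen, as highest in replicate 1 and lowest in replicate 3. Over 3 libraries that choice fixes their order as the reverse of the order of Saa2, so the reversal is no separate result. The part of an acute phase response in their levels was not tested. Without siAATF replicate 3, 30 members rose and none fell, where 3560 of 16950 genes rose and 2495 fell.

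The genes that supply the donors rose in part, and the counts of called genes depended on the scaling. Under library size alone, where 40.4% of all genes fell, the lists below had 1 gene higher and 1 lower for UDP-glucuronate, 2 and 2 for PAPS, 3 and 2 for glutathione, 1 and 3 for membrane-bound GST-like enzymes, 11 and 0 for other conjugating enzymes, 4 and 2 for regulators, 3 and 5 for exporters and 0 and 4 for hydrolases. The counts that follow are under TMM scaling, where 17.6% of all genes rose and 14.4% fell. In the UDP-glucuronate list 5 of 7 genes rose and 1 fell. Slc35d1, which carries UDP-glucuronate into the endoplasmic reticulum, went from 28.9, 7.25 and 13.4 to 142, 299 and 194 CPM (log2 fold change 3.60, SE 0.55), and Ugdh, which makes it, rose by a log2 fold change of 1.64 (SE 0.38), with the call lost without siControl replicate 3 (adjusted p = 0.0535 in edgeR) and the sign turned under library size alone (-0.15). Hk1, the hexokinase of most cells other than hepatocytes, fell from 62.8 to 69.2 CPM to 1.82 to 3.66 CPM (log2 fold change -4.64, SE 0.41). In the PAPS list 5 of 9 genes rose and none fell, although Papss1 and Slc35b3 fell under library size alone. The calls of Bpnt1 and Bpnt2 were lost after thinning and without siControl replicate 3 (adjusted p = 0.0914 and 0.0511 in edgeR for the latter). Slc35b2 was called higher without siAATF replicate 2 (adjusted p = 0.00908 in edgeR). The sulfate carrier Slc26a1 (log2 fold change 4.17) and the sulfite oxidase Suox (3.52) rose most, and the PAPS synthase Papss2 rose by 2.60 on the log2 scale while Papss1 stood at 14.5 to 21.7 against 12.7 to 21.7 CPM.

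In the glutathione list 8 of 12 tested genes rose and none fell, although Ggt5 and Chac1 fell under library size alone, Chac1 also fell without siAATF replicate 3 (adjusted p = 0.0375 in edgeR), and Slc7a11, below the count minimum, fell when no filter was used. Cth, which makes cysteine from cystathionine, went from 7.23, 0 and 3.35 to 373, 185 and 405 CPM (log2 fold change 6.26, SE 0.70), and Cbs, the step before it, rose by 4.16. The glutamate-cysteine ligase subunits Gclm (3.36) and Gclc (3.12), which set the rate of glutathione synthesis, rose as well. Of the membrane-bound GST-like enzymes, Mgst1, the microsomal glutathione transferase, went from 446, 62.8 and 113 to 4739, 3725 and 5966 CPM (log2 fold change 4.53, SE 0.88), and Mgst3 rose by 1.69, with the sign turned under library size alone (-0.11). The call of Mgst3 was also lost after thinning (log2 fold change 0.94, adjusted p = 0.375 in edgeR). Alox5ap and Ptges, which serve leukotriene and prostaglandin synthesis rather than detoxification, fell by 4.77 and 2.63 on the log2 scale. Ptges had 21 counts in siControl and 43 in siAATF, and its call was lost without siControl replicate 3 or siAATF replicate 1 (adjusted p = 0.0973 and 0.0586 in edgeR).

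In the list of other conjugating enzymes 15 of 19 genes rose and none fell, with a median log2 fold change of 3.88. This list also holds epoxide hydrolases and a quinone reductase, which do not conjugate. Inmt, a methyltransferase of indoles, went from 0, 0 and 1.12 to 468, 81.1 and 12.5 CPM, highest in replicate 1 like Ugt2b1. Acsm5, of the medium-chain acyl-CoA synthetases that begin glycine conjugation, rose by 5.95 (SE 0.74), and Gnmt, the glycine methyltransferase, by 5.49 (SE 0.94). Of the regulators 9 of 13 rose and Nfe2l2 fell. Ppara (5.14) and Nr1i3, the gene of the receptor CAR (5.02), had the largest fitted changes. Nr1i3 had 1 count over the siControl libraries and 524 over the siAATF libraries, so that the size of its change is uncertain.

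Of 9 exporters of conjugates 4 rose and 2 fell, and of 5 hydrolases 1 rose and 2 fell. The 2 lower exporters and the 1 higher hydrolase are shares near those of all genes. The exporters that rose were led by the bile salt pump Abcb11 (log2 fold change 4.90) and Abcc6 (4.43), both of the hepatocyte, and Abcc2, the canalicular exporter of conjugates, rose by 3.38. Abcc1 and Abcc4 fell by 4.16 and 2.96 on the log2 scale, with the call of Abcc1 lost after thinning (log2 fold change -2.76, adjusted p = 0.0691 in edgeR). Of the hydrolases, which cleave conjugates, Gusb, the lysosomal beta-glucuronidase, fell from 55.6 to 101 CPM to 9.28 to 22.5 CPM (log2 fold change -2.29, SE 0.42), Arsb fell by 1.58 on the log2 scale, and Arsg rose by 1.79. The groups of Arsb overlapped, and its call was lost without siControl replicate 1 or 3 or siAATF replicate 2 and after thinning (adjusted p = 0.0721 to 0.278 in edgeR). The call of Arsg was lost without siControl replicate 3, under library size alone and after thinning (adjusted p = 0.0573 to 0.921 in edgeR). All counts of these lists use the same edgeR test and adjusted p as the members.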

How the data were processed

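Total RNA of mouse liver with human HCC cells was sequenced in 6 libraries after a SMART-Seq preparation, which amplifies cDNA by PCR, so that intervals and floors cover counting error only. The authors aligned reads with STAR 2.7.11 to the joined human and mouse (GRCm39) genomes, dropped multi-mapping reads and those that fitted both species, and summarised the rest per gene with featureCounts 2.0.1 on GENCODE M33. The values are these deposited raw counts, without normalization. Whether strand was used is not given in the sources used here.

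Groups were taken from the sample labels, which do not tie replicates to animals, so p-values measure the spread between these libraries. All columns were assigned. Identifiers were named from GENCODE M39 (56323 of 56884), and no member's type differed from the deposited one. Genes were tested by the quasi-likelihood method of edgeR 4.0.16 in R 4.3.3, with TMM scaling and group alone, on the 18018 genes whose counts summed to 10 or more, adjusted by Benjamini-Hochberg. Hepatocyte ratios, family sums and shares carry no test. On counts simulated for this comparison, 69.1% of 191 genes that were given a log2 change of 3 were recovered and 10 of 16861 unchanged genes were called. The simulation changed few genes, in both directions, and took the fitted TMM scaling as true. In the data 5762 genes were called, so the simulation does not cover an error of scaling between the groups. The alternatives were RLE scaling, library size alone, a minimum of 10 counts per library, no filter, DESeq2 1.42.0, the replicate number as a block, thinning to the smallest mouse total, the study's threshold and leaving out each library.

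Named in each family were the 5 members with the highest level per kb in either group and, among called members, the 3 largest changes in each direction, 22 genes in all. Other members were named after their values were seen. From each list at most 4 called genes per direction were named, except where a lost call is given. The members and lists were chosen with earlier results of these data known. Promoters were cut from GRCm39, and shared sequence was found by exact 100-base windows. Proteins were not used here. Plots used matplotlib 3.10.9.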

Additional observations from a re-analysis of the deposited data

How the results depend on the processing

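No member changed from rising to falling under any alternative among the 30 that rose, and 25 of them rose in each of the 6 fits that left out 1 library. Scaling by library size alone moved most values: 2 members fell, 1 Ugt and 1 Gst gene, 10 Gst genes rose, the members' median was 2.04, and the summed ratios were 4.76 (Ugt), 3.31 (Gst) and 13.2 (Sult). Gsto1 turned to -0.54 and Aatf to -0.92 there, and to -0.21 and -0.11 after thinning to the smallest mouse total, where the median was 3.08 and 37 genes of the cofactor, enzyme, regulator and transport lists were called, against 57. Of the 28 members tested after thinning 24 rose, beside 12.6% of all genes. With a minimum of 10 counts per library 5 members were tested, all Gst, and 5 rose (0 Ugt, 5 Gst, 0 Sult), with 13 list genes called, since only 3552 genes were tested. Of these 3552 genes 872 rose. As a share of raw counts in place of counts per kb, Ugt2b5 held 21.4% and Gstp1 23.2% of their families in siAATF, behind Ugt2b1 (23.4%) and Gstm1 (27.6%). Without Fgb among the markers, the Ugt ratio to hepatocyte markers turned to 0.872, and without Sult2a8 the Sult ratio was 1.34.

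Over the fits that left out 1 library, 25 to 31 members rose (7 to 9 Ugt, 13 to 17 Gst, 5 to 7 Sult) and 0 fell. Of all genes, 1611 of 17749 rose without siControl replicate 3 and 3579 of 17471 without siAATF replicate 2, the fewest and the most. The members' median ranged from 3.14 to 4.83, and 43 to 59 list genes were called. The summed ratios ranged from 10.995 to 36.9 (Ugt), 7.74 to 16.7 (Gst) and 32.9 to 63.9 (Sult). The ratios to hepatocyte markers ranged from 0.868 to 1.52 (Ugt, turning to 0.868 without siControl replicate 2 and to 0.927 without siAATF replicate 1), 0.590 to 0.835 (Gst) and 2.25 to 3.65 (Sult). With the replicate number as a block 34 members rose. Of all 18018 genes 6766 were then called, 3854 of them higher, against 5762 and 3169 in the main fit. Deviations of same-numbered libraries correlated at 0.110, 0.154 and -0.0237, and not every library correlated best with its own number, so the numbers were not taken to pair libraries. The causes of these moves were not tested.

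The siControl depth limits these results: 8 members had no and 7 had 1 to 3 counts there.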

Other observations

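Counts on Gstp-ps (chr1:191758120-191758750), a processed pseudogene that shares sequence with Gstp1 and Gstp2 and is no member of the families, varied in a way of their own. It had 10, 0 and 11 counts in siControl replicates 1 to 3 and 11410, 230 and 125 counts in siAATF replicates 1 to 3. Set against the counts of Gstp1 in the same library, this is 4.13%, 0% and 7.01% in siControl and 16.4%, 7.91% and 0.901% in siAATF. Gstp1 itself differed by 4.08 times among the siAATF libraries, and Gstp-ps by a far wider margin, with siAATF replicate 1 highest for both. Reads that match several places were discarded by the authors, so that the counts on Gstp-ps come from reads placed there alone.
Nnmt, a methyltransferase of nicotinamide among the other conjugating enzymes, was at 22.6, 73.4 and 484 CPM in siAATF replicates 1 to 3 and at 4.01, 12.1 and 10.04 CPM in siControl, so that it was highest in siAATF replicate 3 like Sult1e1 and Sult2a7 and unlike Ugt2b1 and Inmt.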
